A study of Mus musculus with 24 samples.

Results

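The genes of de novo lipogenesis, the route by which cells make fatty acids from sugar, were followed in retroperitoneal white adipose tissue of C57BL/6J mice. The members were 10 genes taken by symbol from the deposited tables, Srebf1, Mlxipl, Thrsp, Acly, Acaca, Fasn, Elovl6, Scd1, Scd2 and Me1, and all 10 were found among 56895 entries. Each table compared 2 groups and held log2(normalized reads + 1) for the 6 libraries of those groups. RNA-seq had been run on 24 offspring, 3 mice in each of 8 groups. The mothers, 15 per group, had eaten for 8 weeks before mating a purified AIN-93G diet that held either 1.0 IU/g of vitamin D3 (CTRL) or 0.0 IU/g (VDD, vitamin D deficient). All dams returned to the control food once the pups were born. At 6 weeks of age the pups went onto a low-fat AIN-93M diet (LF) or a diet with 45% of its energy from fat (HF), which they ate for 8 weeks and which ended with an overnight fast. The 8 groups were thus CTRL LF, CTRL HF, VDD LF and VDD HF, each in males and in females. Litter was not given, so the p-values below measure the spread between these mice and cannot separate it from that between litters.

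Lipogenesis starts from citrate exported by mitochondria. ATP citrate lyase (Acly) cleaves it to acetyl-CoA, acetyl-CoA carboxylase 1 (Acaca) makes malonyl-CoA, and fatty acid synthase (Fasn) builds palmitate with NADPH that malic enzyme (Me1) helps to supply. Elovl6 lengthens the chain, and the stearoyl-CoA desaturases Scd1 and Scd2 introduce a double bond. SREBP-1 (Srebf1) and ChREBP (Mlxipl) are the transcription factors that respond to insulin and to sugar, and Thrsp is a small protein that is regulated with the enzymes. In mouse fat the pathway is known to be active on carbohydrate-rich food and to be restrained by dietary fat and by fasting.

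On GRCm38 with the GENCODE M21 annotation, Srebf1 lies at chr11:60199089-60222581, Acaca at chr11:84129672-84401651, Acly at chr11:100476353-100528000 and Fasn at chr11:120805846-120824547, all on chromosome 11. Scd1 at chr19:44394455-44407879 and Scd2 at chr19:44293674-44306864 lie close together on chromosome 19, with Scd4 (chr19:44333092-44346743) between them. Elovl6 is at chr3:129532355-129638495, Mlxipl at chr5:135089890-135138382, Me1 at chr9:86581371-86695953 and Thrsp at chr7:97412938-97417730. RefSeq promoter windows (GRCm38.p6, from 250 bases before to 50 bases after a start) were at hand for 8 of the 10 members, with 12 windows in all. Scd1 and Scd2 had no entry. The 250 bases before the start are shown for Fasn (chr11:120824548-120824797, minus strand), Thrsp (chr7:97417551-97417800, minus strand) and Elovl6 (chr3:129532136-129532385, plus strand), 3 members whose levels moved together between mice. Capitals mark the NF-Y box CCAAT on either strand.
Fasn: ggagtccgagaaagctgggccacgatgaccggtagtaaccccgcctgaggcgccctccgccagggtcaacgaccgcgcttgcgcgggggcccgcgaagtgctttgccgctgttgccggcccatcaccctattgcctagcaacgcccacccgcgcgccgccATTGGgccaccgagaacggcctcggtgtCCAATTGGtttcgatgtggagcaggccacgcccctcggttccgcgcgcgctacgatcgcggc
Thrsp: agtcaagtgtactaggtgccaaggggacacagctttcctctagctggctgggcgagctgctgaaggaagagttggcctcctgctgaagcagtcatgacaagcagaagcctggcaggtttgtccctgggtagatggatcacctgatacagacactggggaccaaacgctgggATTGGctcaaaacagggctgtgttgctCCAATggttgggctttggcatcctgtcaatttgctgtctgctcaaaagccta
Elovl6: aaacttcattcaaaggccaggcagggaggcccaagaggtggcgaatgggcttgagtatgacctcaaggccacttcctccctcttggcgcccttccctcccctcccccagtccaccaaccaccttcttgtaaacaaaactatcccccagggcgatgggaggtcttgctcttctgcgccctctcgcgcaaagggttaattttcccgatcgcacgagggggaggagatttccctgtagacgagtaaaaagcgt
The Fasn stretch held 3 matches, whose first bases lay 90, 62 and 59 bases before the start; the last 2 overlap on opposite strands. The Thrsp stretch held 2, at 79 and 52 bases. The Elovl6 stretch held none of the 4 motifs searched. The other motifs were the E-box CACGTG, the sterol regulatory element TCACNCCAC and the Sp1 box GGGCGG, all read on both strands. In the whole windows, 1 of the 2 Mlxipl windows held an E-box and the other held the sterol regulatory element, which no other member's window did. Of 32851 promoter windows in the table, 37.4% held the NF-Y box, 35.7% the Sp1 box, 7.15% the E-box and 1.24% the sterol regulatory element. A match describes the letters and is not evidence of a binding site.

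Scd1 dominated the pathway in every library. Together the 10 genes took 2.06% to 12.7% of the reads on genes, and Scd1 was the most abundant of all genes in 16 of 24 libraries and never below rank 4. Per kilobase of merged exons, Scd1 had 48050 to 453700 normalized reads, with a median of 181400. Thrsp followed with a median of 4580 normalized reads per kb, Fasn with 2643 and Me1 with 1567. The medians per kb of Srebf1 (607), Acly (431), Acaca (431), Scd2 (230), Mlxipl (211) and Elovl6 (194) were lower. Over the 24 libraries the ranges of these 6 genes overlapped, and so did those of Thrsp, Fasn and Me1. The members were measured in the same libraries, and their order within single libraries is not given here. Elovl6 varied most. Its SD between mice of the same group was 1.24 on the log2 scale, above 94.1% of tested genes, and that of Fasn was 1.10, against a median of 0.38 over all genes. Srebf1 varied least, with an SD of 0.45.

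Reads on genes ranged from 13346779 to 18484346 per library. The white adipocyte markers were high throughout, with summed levels of 433962 to 1101241 normalized reads and Adipoq at 44740 to 109716. Some libraries also held RNA typical of other tissues. The skeletal muscle markers summed to 552 to 1034356 normalized reads (Acta1, skeletal muscle actin, at 58.7 to 181275) and were highest in VDD LF male 2310. That library had the lowest Srebf1 level of all 24 and the lowest level of each of the 10 members within its group of 3. The brown adipocyte markers summed to 359 to 39166 (Ucp1 at 0.8 to 25479) and were highest in VDD HF females 2121 and 2083. The sums were 17.9 to 6451 for mammary epithelium (Krt5 at 0 to 1879, and Csn2 and Wap at 0 in all 24 libraries), 5365 to 41965 for macrophages (Adgre1 at 171 to 1717) and 298 to 16138 for mesothelium (Msln at 25.6 to 3089). They were 7.7 to 10226 for kidney (Umod at 0 to 1937), 388 to 33106 for adrenal gland (Cyp11a1 at 4 to 12775), 14362 to 149578 for the liver list (Alb at 208 to 1049) and 132 to 1466 for lymphocytes (Cd3e at 4.5 to 122). The high adrenal sums came from Cyp11a1 and Hsd3b1, while Cyp11b2 was at 0 in all 24 libraries, Cyp11b1 and Cyp21a1 reached at most 11.9 and 30.6, and the medullary genes Th, Dbh and Pnmt at most 10.8. The liver sum was almost wholly Cyp2e1, at 13920.5 to 149000 in every library, while Apoa1 reached at most 73.7 and Ttr 28.1, so that it does not measure liver RNA. The column names of 6 libraries contain the word renal, and a term for these libraries was tried. In RNA from whole tissue, fewer cells of a type and less RNA per cell cannot be told apart.

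**Figure D1:**
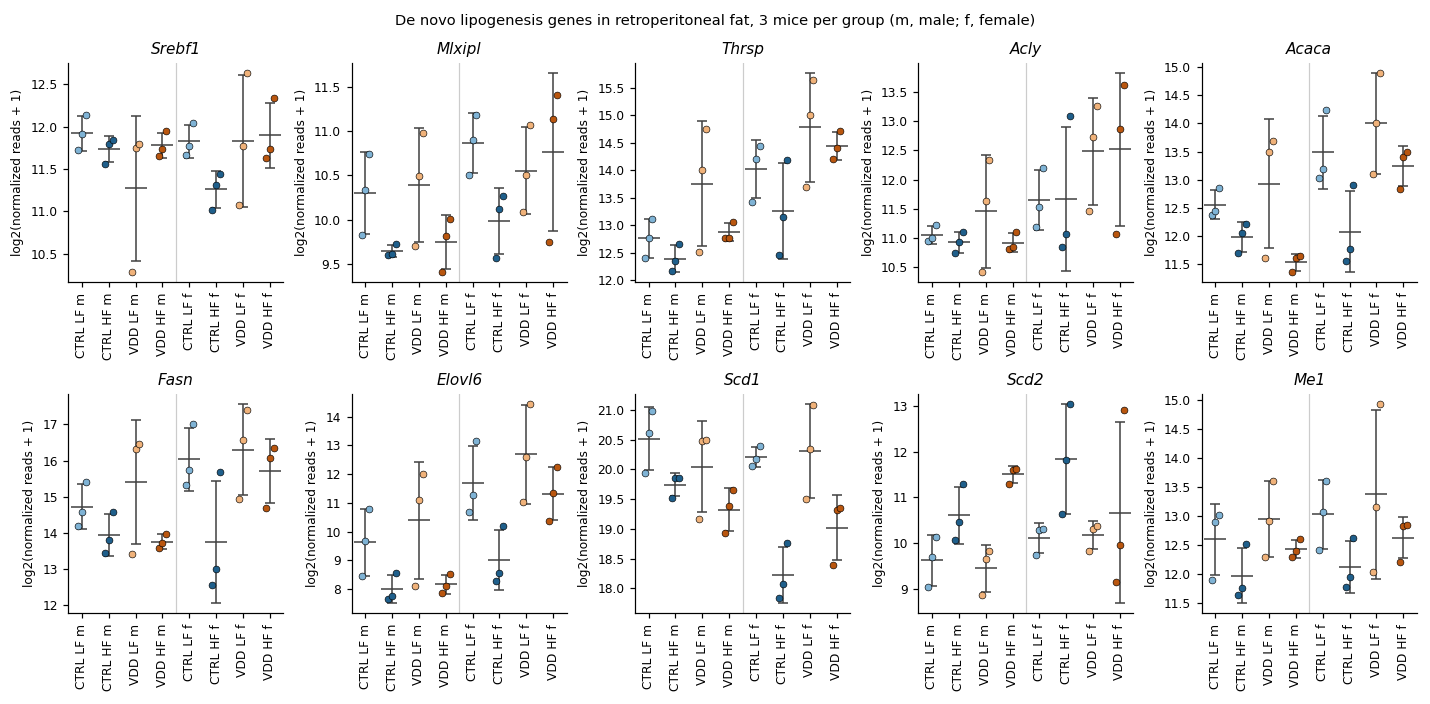
Level of each member as log2(normalized reads + 1), with 1 point per mouse and a bar for the mean ± SD of 3 mice in each of 8 groups. Scd1 and Elovl6 sit lower and Scd2 sits higher in most HF groups, and single mice spread several log2 units in VDD LF males and in the female groups.

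The first question was what the HF diet did to the pathway. Most members had lower levels on HF, and Scd2 went the other way. In CTRL mice, 9 of 10 members were lower on HF in males and 8 of 10 in females, and in VDD mice 8 of 10 in males and 6 of 10 in females. The median log2 difference of the 10 was -0.61 in CTRL males, -0.68 in VDD males, -0.92 in CTRL females and -0.47 in VDD females, where the medians over all tested genes were -0.02, 0.01, 0.01 and -0.01. Most members moved together between mice, as given further on. Counts of members in the same direction, here and below, are therefore not counts of independent genes.

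None of the 10 passed the study's thresholds (a fold change over 1.5 or under 0.66 with an adjusted p below 0.01) in any of the 8 comparisons, by limma or by limma-voom. Few genes of any kind did in these limma fits of 6 libraries. There those thresholds called 0.0578% of tested genes between the diets in CTRL males and 0.0752% in VDD males. They called 0% in CTRL females, VDD females and the 4 comparisons between maternal groups. The study, by DESeq2 at the same thresholds, listed many more genes in every comparison. At an unadjusted p under 0.05 by limma, the counts of members between the diets were 4 in CTRL males (against 18.8% of all tested genes), 2 in VDD males (25.9%), 7 in CTRL females (28.8%) and 0 in VDD females (5.05%). Groups did not overlap for 3 members in CTRL males, 1 in VDD males, 6 in CTRL females and 1 in VDD females, where 24.7%, 33.4%, 35.2% and 11.6% of all tested genes did not overlap. With 10 members, 1 gene moves a share by 10 percentage points, so most of these counts are near the shares of all genes. CTRL females, with 7 and 6 members, stood farthest above them, and whether they differ from the other groups in this was tested only gene by gene, by the interactions given further on.

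A single limma fit over the 24 libraries gave more residual degrees of freedom. Averaged over maternal groups, 3 members were called between the diets in males at an adjusted p under 0.05. Of all tested genes 23% were called (2193 higher and 2037 lower), so 3 of 10 is near that share. Scd2 rose, and Acaca and Elovl6 fell. In females none of the 10 was called, where 3.19% of all genes were. At an unadjusted p under 0.05 by limma there were 6 members, and the share of all genes at that threshold in this fit is not given here. limma-voom called 3 in males and 1, Scd1, in females, where it called 4096 and 419 of all 18399 genes. The difference of the diet effect between the sexes was called for none of the 10, with 0.0435% of all genes called.

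Among the regulators, Srebf1 differed little between diets when the maternal groups were averaged. In CTRL females it had 3253, 4218 and 3482 normalized reads on LF and 2549.9, 2789.7 and 2074 on HF, and these groups did not overlap. The log2 difference there was -0.59 (SE 0.16, limma adjusted p = 0.0668), and in VDD females it was 0.07 (SE 0.40, limma adjusted p = 0.983). It was -0.20 (SE 0.19, limma adjusted p = 0.603) in CTRL males and 0.50 (SE 0.42, limma adjusted p = 0.497) in VDD males. In VDD LF males, mouse 2310 at 1247 lay below the other mice of its group, which had 3435 and 3539. The log2 difference in the 24-library fit was 0.16 (SE 0.24, limma adjusted p = 0.693) in males and -0.25 (SE 0.24, limma adjusted p = 0.612) in females. Its 95% intervals, -0.35 to 0.67 and -0.76 to 0.26, included 0 in both sexes.

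Mlxipl, the sugar-responsive factor, had 1295, 905 and 1706 normalized reads in CTRL LF males and 775, 783 and 845 in CTRL HF males. In CTRL females it had 1909, 1453 and 2329 on LF and 1112, 1229 and 758 on HF. In both sexes every CTRL HF mouse lay below every CTRL LF mouse. In VDD females no such order was seen, with 1085, 1451 and 2141 on LF and 858, 2256 and 2710.4 on HF. The log2 difference between CTRL females on the 2 diets was -0.90 (SE 0.23, limma adjusted p = 0.056). Averaged over maternal groups, it was -0.65 (SE 0.27, limma adjusted p = 0.0844) in males and -0.33 (SE 0.27, limma adjusted p = 0.513) in females.

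Thrsp had 7002, 8895 and 5434 normalized reads in CTRL LF males and 4609, 6458 and 5224 in CTRL HF males, which overlapped. The VDD LF males spread over 27445, 16548 and 5868, and the VDD HF males kept close together at 8520, 7002 and 7004. The lowest value of the VDD LF group, again mouse 2310, lay below the whole HF group. The log2 difference in males was -0.63 (SE 0.36, limma adjusted p = 0.215) and became -0.94 (SE 0.32, limma adjusted p = 0.0372) without that library. In females it was -0.55 (SE 0.36, limma adjusted p = 0.409).

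Acly, which supplies acetyl-CoA, did not differ between diets beyond its spread. CTRL males had 2393, 2034 and 1968 normalized reads on LF and 1716, 2205 and 1939 on HF. In females on HF single mice reached high levels, with 1846, 8719 and 2142 in CTRL and 2148, 7478 and 12557 in VDD mice. The high values were those of CTRL mouse 2291 and VDD mice 2083 and 2121. The log2 difference was -0.33 (SE 0.43, limma adjusted p = 0.63) in males and 0.03 (SE 0.43, limma adjusted p = 0.979) in females, with intervals of -1.24 to 0.57 and -0.87 to 0.93.

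Acaca, the committed step, was lower on HF in all 4 pairs of groups. CTRL males had 7365, 5585 and 5286 normalized reads on LF and 4756, 4223 and 3295 on HF, with no overlap. VDD males had 13113, 11543 and 3115 on LF and 3111, 2622 and 3184 on HF, where mouse 2310 lay within the HF range. CTRL females had 9382, 19227 and 8392 on LF and 3019.8, 7630.4 and 3482 on HF, again without overlap. In VDD females the groups overlapped, with 30352, 16551 and 8778 and 7338, 10848 and 11472. In males Acaca fell to 0.506 of the LF level, a log2 difference of -0.98 (SE 0.34, limma adjusted p = 0.0451). In females the size was alike but not called, at -1.08 (SE 0.34, limma adjusted p = 0.0829).

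Fasn varied more between mice of a group than Acly or Acaca. CTRL males had 43833, 24404 and 18638 normalized reads on LF and 14172, 24328 and 11207 on HF. VDD males had 81184, 90494 and 10998 on LF, of which the lowest is mouse 2310, and 16092, 12194 and 13635 on HF. CTRL females had 55156, 132959 and 41008 on LF and 6068, 52458 and 8129 on HF. There mouse 2291 reached the LF range while the other two stayed far below it. VDD females had 174190, 97151 and 31309 on LF and 26553, 82858 and 69215 on HF, which overlapped. The log2 difference was -1.21 (SE 0.58, limma adjusted p = 0.141) in males and -1.44 (SE 0.58, limma adjusted p = 0.165) in females.

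Elovl6, the elongase of palmitate, showed the largest difference of the 10. CTRL males had 1768, 812 and 351 normalized reads on LF and 203, 375 and 216 on HF, with the highest HF mouse just above the lowest LF mouse. VDD males had 4068, 2211 and 274 on LF and 276, 232 and 369 on HF, with mouse 2310 at the HF level. In CTRL females the values were 2485.5, 9074 and 1646 on LF and 379.6, 1166 and 307 on HF, and the groups did not overlap. In VDD females they were 22223, 6183 and 2086 and 1329, 4821 and 2627 and overlapped. Elovl6 fell in males to 0.261 of the LF level, with a log2 difference of -1.94 (SE 0.65, limma adjusted p = 0.0375). In females the ratio was 0.245, at -2.03 (SE 0.65, limma adjusted p = 0.0858).

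The desaturases moved apart. Scd1, the main desaturase of adipocytes, had 1610496, 2082026 and 1011044 normalized reads in CTRL LF males and 951292, 949288 and 751159 in CTRL HF males, without overlap. VDD males had 1459435, 1482484 and 587048 on LF and 684045, 499714 and 826444 on HF, which overlapped through mouse 2310. CTRL females had 1182906, 1382571 and 1092346 on LF and 235064, 443587 and 276393 on HF, so that the highest HF mouse stayed far below the lowest LF mouse. VDD females had 2219350, 1323888 and 741548 on LF and 671323, 650167 and 344679 on HF, without overlap. The log2 difference was -0.75 (SE 0.54, limma adjusted p = 0.339) in males and -1.64 (SE 0.54, limma adjusted p = 0.0917) in females. These SEs are set largely by the fitted trend of the variance at the top of the level range. With no such trend the SE was 0.29 and the difference in females was called (-1.64, limma adjusted p = 0.0129), as it was by limma-voom (-1.63, adjusted p = 0.00926).

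Scd2, the desaturase best known from brain, was present at far lower levels. CTRL males had 1125, 824 and 522 normalized reads on LF and 1407, 2502.5 and 1070.3 on HF, and the lowest HF mouse lay within the LF range. VDD males had 796, 907 and 464 on LF and 3114, 3150.2 and 2518 on HF, where every HF mouse was well above every LF mouse. CTRL females had 1260.4, 1248 and 849 on LF and 1589, 8469.6 and 3613 on HF, also without overlap. In VDD females, with 1332, 1268 and 906 on LF and 563, 985 and 7712 on HF, only mouse 2121 was high and mouse 2081 was the lowest of the 6. In VDD males taken alone the log2 difference was 2.07 (SE 0.27, limma adjusted p = 0.0208), a 4.19-fold higher level that passed an adjusted p of 0.05 but not 0.01. In the 24-library fit Scd2 rose 2.88-fold in males, a log2 difference of 1.53 (SE 0.48, limma adjusted p = 0.0264), and was 2.16-fold higher in females, at 1.11 (SE 0.48, limma adjusted p = 0.19).

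The ratio of Scd1 to Scd2 reads within a library depends on no scaling between libraries. In males it was 1264 to 2526 reads of Scd1 per read of Scd2 on LF and 159 to 702 on HF, with no overlap. In females it was 818 to 1666 on LF and 44.7 to 1193 on HF, where VDD HF mice 2081 (1193) and 2083 (660) stayed near the LF mice. The mean log2 ratio differed by -2.28 between HF and LF in males, a 4.84-fold lower ratio (exact permutation test within maternal groups, two-sided p = 0.005, the smallest that 400 arrangements allow). In females it differed by -2.75, a 6.71-fold lower ratio (exact permutation p = 0.015). Within females the log2 difference was -3.71 in CTRL and -1.78 in VDD mice, and within males -1.76 and -2.79. Reads were kept only where they aligned to 1 position, so reads shared by the closely related Scd genes would have been dropped.

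**Figure D2:**
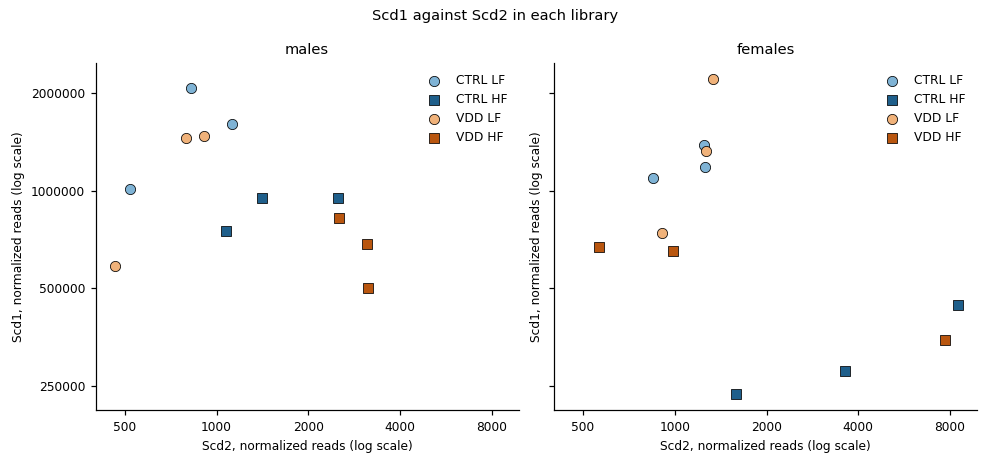
Normalized reads of Scd1 against those of Scd2 on log axes, 1 point per library, circles for LF and squares for HF. In males the HF squares lie below and to the right of most LF circles, and in females 2 VDD HF libraries stay on the left among the LF libraries.

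Me1, the NADPH supplier, had 8260.5, 7606 and 3808 normalized reads in CTRL LF males and 3454, 5844 and 3212 in CTRL HF males. VDD males had 12517, 7762 and 5060.5 on LF and 5386, 6215 and 5029.8 on HF, and in both pairs the groups overlapped. It had 8634, 12419 and 5447 normalized reads in CTRL LF females and 3527, 6310.3 and 3984 in CTRL HF females. In VDD females mouse 2303 stood at 31194 on LF, above the other two at 9192 and 4189, and the HF mice had 4765, 7272 and 7332. The log2 difference was -0.57 (SE 0.37, limma adjusted p = 0.283) in males and -0.83 (SE 0.37, limma adjusted p = 0.207) in females.

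The number of members called depended on single libraries. The shares of all genes called with a library left out are not given here, so the counts without single libraries cannot be set against them. Without VDD LF male 2310, limma called 5 members between the diets in males: Acaca (-1.31, adjusted p = 0.00333), Elovl6 (-2.51, adjusted p = 0.00426), Fasn (-1.71, adjusted p = 0.0237), Mlxipl (-0.82, adjusted p = 0.0272) and Thrsp (-0.94), while Scd2 just missed (1.38, adjusted p = 0.0506). In the comparison of VDD LF and VDD HF males, leaving it out brought 4 members past the study's thresholds, by limma: Acaca (-2.06, adjusted p = 0.00543), Fasn (-2.63, adjusted p = 0.00579), Elovl6 (-3.39, adjusted p = 0.00659) and Scd2 (1.77, adjusted p = 0.00579). Leaving out any of the other 11 male libraries reduced the calls in males to 1 member or none. That member was Elovl6 without CTRL LF male 2296 or CTRL HF male 2128 and Scd2 in the other cases, and without VDD HF male 2307 none was called. Over all 24 libraries left out in turn, Scd2 was called in 20 cases, Elovl6 in 15 and Acaca in 10, and none of these 3 changed direction. In females, leaving out VDD LF male 2310 or VDD LF female 2312 brought Acaca and Elovl6 past the threshold, and leaving out VDD HF female 2083 brought Elovl6 past it. With the brown adipocyte markers as a covariate only Scd2 was called (1.92, limma adjusted p = 0.0175), with Elovl6 at -1.39 and Acaca at -0.80. With the mammary markers none was, while Scd2 was at 1.40, Elovl6 at -1.79 and Acaca at -0.86, and 4 members kept an unadjusted p under 0.05 by limma. Both covariates were added after the data had been seen. Of the 10 macrophage markers, 9 were higher on HF in males (2 called) and all 10 in females (0 called, 6 at an unadjusted p under 0.05), and of the 9 tested brown adipocyte markers 8 were lower in males (2 called) and 7 in females (0 called). The part of the macrophage markers in these differences was not tested. The white adipocyte markers had median log2 differences of -0.29 in males and -0.15 in females. With the white adipocyte markers as a covariate, limma called 1 member in females, Scd1 (-1.62, adjusted p = 0.0364).

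**Figure D3:**
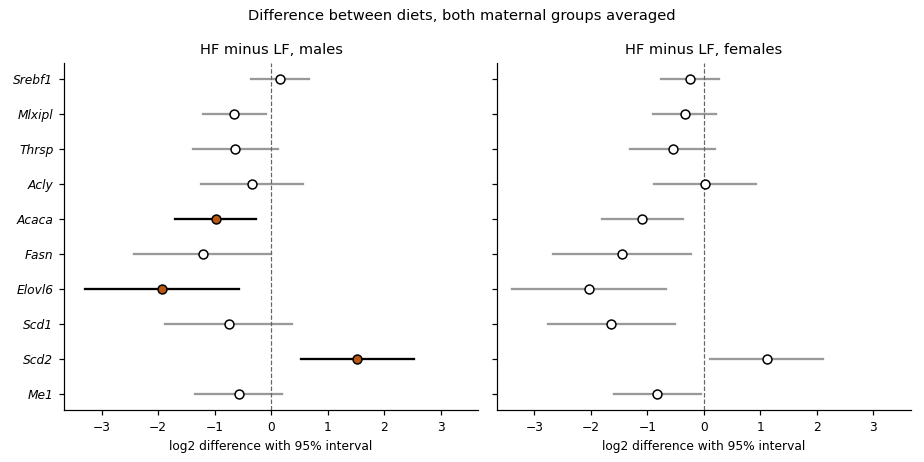
Log2 difference between HF and LF for each member in males and in females from the 24-library fit, with 95% intervals; filled points have a limma adjusted p under 0.05. In males Acaca, Elovl6 and Scd2 are filled, and in females the intervals of Acaca, Fasn, Elovl6, Scd1, Scd2 and Me1 exclude 0 without reaching that threshold.

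Neighbouring steps of lipid metabolism were read from lists of other genes. Of 22 other lipogenic enzymes and carriers, limma called 3 higher and 5 lower on HF in males, and 0 and 2 in females. These and the counts that follow stand beside 23% of all genes called in males and 3.19% in females in the same fit. In males the lists ran from 6 of 21 to 9 of 24 genes called, not far above that share. Acacb, the mitochondrial acetyl-CoA carboxylase that restrains fatty acid oxidation, fell by 1.57 on the log2 scale in males (adjusted p = 0.000467) and by 1.75 in females (adjusted p = 0.00412). Scd3, another desaturase of the same cluster on chromosome 19, went with Scd1. It had 82.2, 71.1 and 30.9 normalized reads in CTRL LF males and 10.1, 18.1 and 10.7 in CTRL HF males, without overlap. Its log2 difference was -2.42 (SE 0.41, limma adjusted p = 0.000499) in males and -2.17 (SE 0.41, limma adjusted p = 0.0105) in females.

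Of 24 genes for NADPH and carbon supply, 8 fell in males and 5 in females, and none rose in either sex. They included transketolase (Tkt) of the pentose phosphate pathway, at -1.53 (SE 0.32, limma adjusted p = 0.00215) in males and -1.41 (SE 0.32, limma adjusted p = 0.025) in females, and Pdha1 of pyruvate dehydrogenase, at -1.14 (SE 0.23, limma adjusted p = 0.00207) and -0.997 (SE 0.23, limma adjusted p = 0.0286). Pdk4, which inhibits pyruvate dehydrogenase, also fell, at -1.24 (SE 0.39, limma adjusted p = 0.0259) and -1.67 (SE 0.39, limma adjusted p = 0.0271). Of 22 regulators of lipogenic genes, 7 fell and 1 rose in males, and 1 fell in females. Pparg, the master factor of adipocytes, was at -0.71 (SE 0.13, limma adjusted p = 0.000687) in males and -0.45 (SE 0.13, limma adjusted p = 0.057) in females. Insig2, which holds SREBPs in the endoplasmic reticulum, fell in both, at -0.37 (SE 0.13, limma adjusted p = 0.047) and -0.62 (SE 0.13, limma adjusted p = 0.0173). The cell cycle inhibitor Cdkn1a, also on this list, fell in males, at -1.79 (SE 0.39, limma adjusted p = 0.00295), and was at -0.44 (SE 0.39, limma adjusted p = 0.553) in females.

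Of 24 triglyceride synthesis genes, 9 fell in males and 3 in females, with none higher. The phosphatidate phosphatase Lpin1 fell in both sexes, at -1.42 (SE 0.20, limma adjusted p = 0.000104) and -1.23 (SE 0.20, limma adjusted p = 0.00591), as did the fatty acid transporter Slc27a1, at -1.09 (SE 0.24, limma adjusted p = 0.00385) and -1.20 (SE 0.24, limma adjusted p = 0.016). Acsl1, an acyl-CoA synthetase, fell in males, at -1.33 (SE 0.24, limma adjusted p = 0.00071), and was at -0.84 (SE 0.24, limma adjusted p = 0.0558) in females. Of 18 lipolysis genes, 6 fell in males and 3 in females. These included Abhd5, the coactivator of adipose triglyceride lipase, at -1.13 (SE 0.14, limma adjusted p = 3.57e-05) and -0.81 (SE 0.14, limma adjusted p = 0.00714), and Fitm2, which serves lipid droplet formation, at -0.74 (SE 0.11, limma adjusted p = 0.000159) and -0.55 (SE 0.11, limma adjusted p = 0.0123). Of 21 tested cholesterol synthesis genes, 4 rose and 2 fell in males and none was called in females by limma (5 at an unadjusted p under 0.05). Dhcr7, of its last step, rose in males, at 0.83 (SE 0.23, limma adjusted p = 0.0132), and the lanosterol demethylase Cyp51 fell, at -0.96 (SE 0.28, limma adjusted p = 0.0191). Dhcr7 was at 0.70 (SE 0.23, limma adjusted p = 0.0905) and Cyp51 at -0.82 (SE 0.28, limma adjusted p = 0.108) in females, and the sterol reductase Tm7sf2 was at -0.19 (SE 0.27, limma adjusted p = 0.668) and -0.88 (SE 0.27, limma adjusted p = 0.0744). The median log2 differences in males were -0.32 for the other lipogenic genes, -0.46 for NADPH and carbon supply, -0.23 for the regulators, -0.34 for triglyceride synthesis, -0.43 for lipolysis and 0.23 for cholesterol synthesis, beside -0.64 for the 10 members and close to 0 for all genes.

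The next question was whether the mother's vitamin D supply marked the pathway. In daughters 9 of 10 members were higher after VDD, the exception being Scd2, and none was called by limma or limma-voom, where 2.02% of all genes were called by limma. The median log2 difference of the 10 was 0.64 in females and 0.22 in males, where the medians over all tested genes were -0.006 and -0.003. The limit given above for counts of directions holds here too. In sons 0% of all genes were called, no member had an unadjusted p under 0.05 by limma, and 1 had by limma-voom. The other lists leaned the same way in daughters. Of the 24 genes for NADPH and carbon supply, 23 were higher after VDD, with a median log2 difference of 0.66, and limma called 3 higher and none lower. Of the other lipogenic genes it called 2 of 22 higher, of the regulators 1 of 22, of triglyceride synthesis 2 of 24, of cholesterol synthesis 1 of 21 and of lipolysis 1 of 18, and none lower. These calls come from the 371 genes called in the 24-library fit. No gene was called in a limma fit over the 12 female libraries or with the brown adipocyte markers as a covariate, so none of the list calls was made there. In sons limma called none in any of these lists, and there all 10 skeletal muscle markers were higher after VDD, by a median of 4.58 on the log2 scale, with none called.

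In females the smallest p-values were those of Thrsp and Elovl6. On HF, CTRL daughters had 379.6, 1166 and 307 normalized reads of Elovl6 and VDD daughters 1329, 4821 and 2627, every VDD mouse above every CTRL mouse. In that comparison the log2 difference was 2.33 (SE 0.62, limma adjusted p = 0.174), a 5.02-fold higher mean level on the log scale. Thrsp had 5598, 18709.5 and 9080.1 in CTRL HF and 18919, 21658 and 27066 in VDD HF daughters, also without overlap, at 1.19 (SE 0.45, limma adjusted p = 0.257). Srebf1 did not overlap either, with 2549.9, 2789.7 and 2074 against 3398, 3166 and 5153, at 0.65 (SE 0.23, limma adjusted p = 0.236). Thus 3 members did not overlap in HF females, where 22.9% of all genes did not, and 4 had an unadjusted p under 0.05 by limma, against 16.7% of all genes.

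Averaged over both diets, the difference in females was 1.65 (SE 0.65, limma adjusted p = 0.158) for Elovl6, 0.97 (SE 0.36, limma adjusted p = 0.133) for Thrsp, 0.84 (SE 0.34, limma adjusted p = 0.17) for Acaca, 0.84 (SE 0.43, limma adjusted p = 0.266) for Acly and 1.12 (SE 0.58, limma adjusted p = 0.278) for Fasn. Without VDD LF female 2312, Thrsp passed the threshold (1.24, limma adjusted p = 0.0363). The summed markers of both kinds of adipocyte also differed between HF daughters. The white adipocyte markers summed to 575110 to 951713 in VDD HF daughters and to 433962 to 475476 in CTRL HF daughters, without overlap. Adipoq alone overlapped, at 44740 to 99674 and 60123 to 77598. The mean log2 level of the list, which was the covariate, also overlapped, at 14.62 to 15.14 and 14.25 to 14.73. With that mean level as a covariate, Elovl6 was at 1.17, Thrsp at 0.57, Acaca at 0.49, Acly at 0.66 and Fasn at 0.62. No member then had an unadjusted p under 0.05 by limma in place of 3, and 5 genes in all were called in place of 371. For the brown adipocyte markers, 2 of the 3 VDD HF daughters had the highest sums of all libraries, 39166 and 22218, while the CTRL HF daughters had 359 to 1059 and Ucp1 at 0.8 to 215. With the brown markers as a covariate the differences were 0.82 for Elovl6, 0.94 for Thrsp, 0.56 for Acaca, 0.30 for Acly and 0.58 for Fasn, none of them called. Of the 9 tested brown adipocyte markers, all were higher after VDD and 2 were called.

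In LF daughters no member was without overlap (18.2% of all genes were) and none had an unadjusted p under 0.05 (12% of all genes). The same was true of LF sons, with 13.4% and 6.79% of all genes. In HF sons, 2 members did not overlap (10.3% of all genes) and 3 had an unadjusted p under 0.05 by limma (5.31%). Acaca was lower after VDD, at -0.47 (SE 0.18, limma adjusted p = 0.94), and Thrsp higher, at 0.46 (SE 0.18, limma adjusted p = 0.94). Scd2 was at 0.89 (SE 0.30, limma adjusted p = 0.94), with overlapping groups. The comparisons on one diet share no mice with those on the other, but each shares its groups with a diet comparison above.

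The last question was how sons and daughters differed, and here several members stood lower in males. Over all diets, 9 of 10 members were lower in males than in females, and limma called 4 of them lower and none higher, where 19.8% of all genes were called. limma-voom also called 4. Elovl6 was at 0.228 of the female level, a log2 difference of -2.13 (SE 0.46, limma adjusted p = 0.00304). Thrsp was at -1.18 (SE 0.25, limma adjusted p = 0.00286), Acaca at -0.95 (SE 0.24, limma adjusted p = 0.00937) and Acly at -0.99 (SE 0.31, limma adjusted p = 0.0277). Fasn had a difference as large as that of Acly but a wider spread, at -0.99 (SE 0.41, limma adjusted p = 0.0996), and Mlxipl was at -0.52 (SE 0.19, limma adjusted p = 0.0577). Srebf1 (-0.02) and Scd1 (0.47) did not follow, with limma adjusted p = 0.94 and 0.415.

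Within the 4 pairs of groups the sexes often overlapped. In CTRL LF mice Thrsp had 7002, 8895 and 5434 normalized reads in sons and 10974, 22257 and 18879.7 in daughters, and Acaca was also without overlap, as 24.3% of all genes were. In CTRL HF mice Thrsp had 4609, 6458 and 5224 in sons and 5598, 18709.5 and 9080.1 in daughters, which overlapped, as they did for Acaca and Elovl6. There Scd1 and Srebf1 were higher in every son than in every daughter (24.4% of all genes without overlap). In VDD LF mice no member was without overlap (15.4% of all genes were), and in VDD HF mice Fasn, Acaca, Elovl6 and Thrsp were, all lower in sons (26.3% of all genes). Elovl6 there had 276, 232 and 369 in sons and 1329, 4821 and 2627 in daughters. Acly overlapped in all 4 pairs. The brown adipocyte markers summed to 461 to 7016 in males and 359 to 39166 in females, and with them as a covariate only Thrsp was called (-1.17, limma adjusted p = 0.0227) while Elovl6 was at -1.67 (adjusted p = 0.0514). With the mammary markers as a covariate Elovl6, Acaca and Thrsp were called and Acly was at -0.93 (limma adjusted p = 0.234). Of the marker lists, 5 of 6 tested mammary genes were called lower in males and 7 of 10 macrophage genes higher. Of the other lists, 8 of 21 cholesterol synthesis genes were called lower in males and none higher, and 6 of 18 lipolysis genes higher and none lower.

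**Figure D4:**
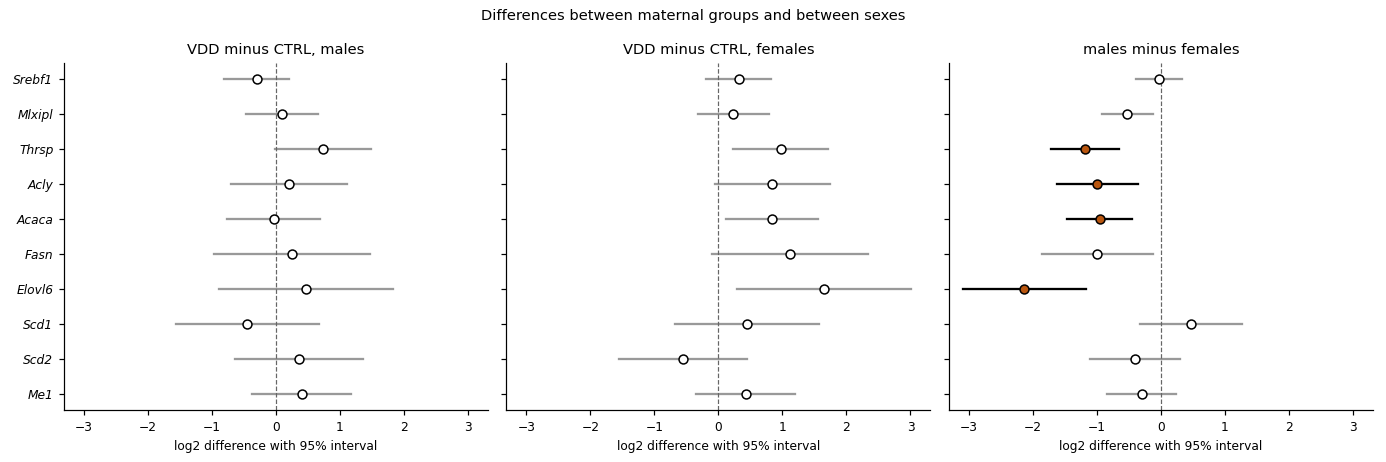
Log2 differences of each member between maternal groups in males and in females, and between the sexes, from the 24-library fit with 95% intervals; filled points have a limma adjusted p under 0.05. Elovl6, Thrsp, Acaca and Acly are filled for sex, all lower in males, and no point is filled for the mother's diet.

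No member's diet effect was shown to depend on the mother's diet or on sex. limma and limma-voom called 0 of the 10 for the interaction of maternal and offspring diet in males (0% of all genes by limma), in females (0%), for sex by maternal diet (0%) and for all 3 factors together (0.00544%). By limma no member had an unadjusted p under 0.05 in any of these, and by limma-voom 1 had for sex by offspring diet and 1 for sex by maternal diet. The intervals were wide. For Mlxipl in females, lower on HF after CTRL mothers but not after VDD mothers, the interaction was 1.09 (SE 0.53, limma adjusted p = 0.786) with an interval of -0.02 to 2.21. For Fasn over all 3 factors it was -2.54 (SE 1.65, limma adjusted p = 0.732) with an interval of -5.99 to 0.92.

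Mice of the same group also differed, and the members moved together in these differences. After subtraction of group means, Fasn and Acaca were correlated over the 24 libraries with r = 0.95, Acaca and Elovl6 with r = 0.93, and Fasn and Elovl6 with r = 0.92. The median r of a member with the other 9 was 0.84 for Acaca, 0.81 for Elovl6, 0.80 for Thrsp, 0.78 for Fasn, 0.50 for Scd2 and 0.15 for Mlxipl. These values are descriptions of libraries that share depth and tissue content.

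Srebf1 and Mlxipl were set against the other 8 genes in 16 relations. With Srebf1, Pearson's r ranged from 0.50 (Scd2) to 0.87 (Acaca), and 7 of 8 passed an adjusted p of 0.05 by permutation within groups (100000 resamples, two-sided, Benjamini-Hochberg over 16). For Acaca, r was 0.87 (permutation p = 0.00046, adjusted 0.00736) and Spearman's rho 0.80 (permutation p = 0.00061, adjusted 0.00704). Fasn had r = 0.77 and rho = 0.77 (adjusted permutation p = 0.00947 and 0.00704). Scd1 had r = 0.65 and rho = 0.53 (adjusted permutation p = 0.0934 and 0.116). The farthest libraries were VDD LF male 2310 and VDD LF female 2303. Without them r was 0.67 for Acaca and 0.60 for Fasn, the highest was 0.67 and the lowest 0.16 (Scd1), and none of the 8 passed (adjusted permutation p of 0.0941 and above), while 5 kept an unadjusted permutation p under 0.05 and r for Scd2 was higher, at 0.65. Within males r ranged from 0.68 to 0.98 and within females from 0.47 to 0.86, all positive, and none passed the adjusted threshold with 12 libraries (exact permutation).

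With Mlxipl, r ranged from -0.28 (Scd1) to 0.39 (Scd2) and none of the 8 relations passed (adjusted permutation p of 0.484 and above for r). Without VDD HF female 2081 and VDD LF male 2310, which lay farthest out, all 8 were negative, from -0.67 (Scd1) to -0.01 (Scd2), with adjusted permutation p of 0.0941 and above. Whether the relations with Srebf1 and with Mlxipl differ was not tested.

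**Figure D5:**
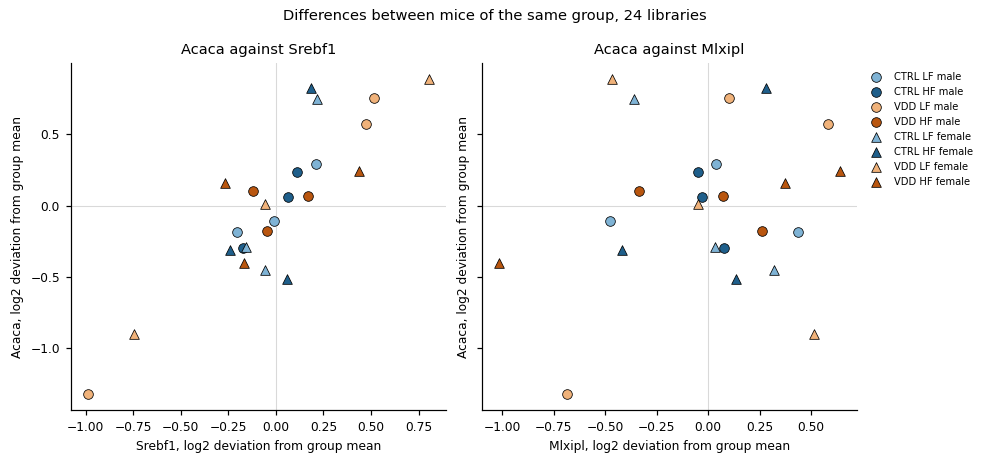
Deviation of Acaca from its group mean against that of Srebf1 and of Mlxipl, log2 units, 24 libraries. Acaca rises along Srebf1 (r = 0.87), with VDD LF male 2310 at the lower left and VDD LF female 2303 at the upper right, and shows no such order along Mlxipl (r = 0.15).

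The genes most like the pathway were sought by the correlation of each gene's log2 level with the mean standardized level of the 10 members over 24 libraries. The 5 highest were Slc25a1 (r = 0.94), the mitochondrial citrate carrier, Coasy (r = 0.93), which completes coenzyme A synthesis, Taldo1 (r = 0.92) of the pentose phosphate pathway, 9630013D21Rik (r = 0.91) and Lss (r = 0.91), lanosterol synthase. Slc25a1 ranged from 1584 to 20073 normalized reads and Taldo1 from 3111 to 13172. This measure uses the group differences described above and carries no test.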

How the data were processed

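Retroperitoneal fat of 24 mice had been sequenced. Per the study's methods, the authors trimmed reads, aligned them to mm10 with STAR 2.7.0d, kept those with 1 position, added transcripts assembled by Cufflinks 2.2.1 to the annotation, counted with featureCounts 1.6.1 and normalized with DESeq2. The deposited values are log2(normalized reads + 1), scaled within each of 8 tables of 6 libraries. The same tables also hold the authors' fold changes and p-values, which were not used. Undoing the log2 and the size factor gave whole reads for 100% of values within 0.02.

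Of 56899 entries per table, 4 with repeated names were left out. Column names gave each mouse's group and number but not the replicate number of the labels. The deposited log2 values were compared within each table with limma 3.58.1 (R 4.3.3), with a variance trend, keeping genes that reached 10 normalized reads in 3 or more libraries, at the study's thresholds of a fold change over 1.5 or under 0.66 with an adjusted p below 0.01. For contrasts across groups, the recovered reads of 24 libraries were scaled together and fitted in 1 limma model with 8 group means (18399 genes, Benjamini-Hochberg adjusted p under 0.05). Levels quoted per mouse come from that joint scaling. Fold changes are on the log2(value + 1) scale, which understates changes of low genes. The deposited unit is log2, so limma on log2 values was the main test in place of a count model. The recovered whole reads would also have allowed a count model, and limma-voom was run on them. On simulated data the 24-library fit recovered 94% of 4-fold and 76% of 2-fold changes in males, and the fit of CTRL LF against CTRL HF males 55% and 1%. These are rates over all changed genes of the simulation. The members varied more than the median gene, with SDs within groups of 0.45 to 1.24 against 0.38. Recovery at the spread of the members is not given here. Ratios and relations were tested by permutation (Python 3.11.15, numpy 2.4.6, scipy 1.17.1, pandas 2.3.3). Figures were drawn with matplotlib 3.10.9.

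The members and the gene lists were chosen with earlier results of these data known. Named genes were the 10 members, for each other lipid list the 2 genes with the smallest p for diet in males and the 2 in females, the 5 genes most correlated with the members' mean, and the first gene of each marker list; Csn2, Wap, the further adrenal and liver markers and single libraries were named after their values were seen. The alternatives tried were other thresholds, limma-voom, trimmed mean scaling, a pseudocount of 10, no filter, fits of 1 sex, each library left out, and terms for the renal-named libraries and for muscle or white adipocyte markers; terms for mammary and brown adipocyte markers and a fit with no variance trend were added after seeing the data.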

Additional observations from a re-analysis of the deposited data

How the results depend on the processing

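The number of members called changed with the processing as follows, with all genes called in the same fit in brackets. Between VDD LF and VDD HF males it was 0 (12) and became 1 (854) at an adjusted p under 0.05 with no fold threshold. It was 1 (614) in a fit over the 12 male libraries, and 0 to 4 with each library left out. For HF against LF in males it was 3 (4230) and became 0 (1556) at the stricter thresholds and 1 (3550) with no filter. It was 0 (4175) with the mammary and 1 (3153) with the brown adipocyte markers as a covariate, and 0 to 5 with each library left out. In females it was 0 (587) and became 1 (419) by limma-voom, 1 (438) with no variance trend and 1 (900) with the white adipocyte markers as a covariate. It was 0 to 2 with each library left out. For VDD against CTRL females it was 0 (371), and 0 to 1 with each library left out. For the sexes it was 4 (3651) and became 1 (1761) with the brown adipocyte markers. All genes called with a library left out are not given here. The 7 relations with Srebf1 past the threshold became 0 without the 2 farthest libraries, 0 within males and 0 within females. The cause of these changes was not tested, except that the fits with fewer libraries have fewer degrees of freedom. Directions turned only for differences that were not called. Acly between diets became 0.029 in males with the brown adipocyte markers and -0.046 in females with the term for renal-named libraries, and ranged from -0.33 to 0.39 in females with each library left out. Srebf1 between diets in males ranged from -0.087 to 0.29, and between the sexes from -0.12 to 0.10, with each library left out, and was 0.066 between the sexes with the brown adipocyte markers. Scd1 between the sexes became -0.051 with the mammary markers. Among relations with Mlxipl, r became 0.12 for Scd1 and 0.067 for Me1 within males, -0.12 for Acaca, -0.11 for Elovl6 and -0.14 for Thrsp within females, and -0.014 for Scd2, -0.29 for Fasn, -0.45 for Acaca, -0.27 for Acly, -0.57 for Elovl6 and -0.45 for Thrsp without the 2 farthest libraries. Scaling by the trimmed mean and a pseudocount of 10 changed no count of members called by over 1.5 times. No paired analysis was possible because each library came from a different mouse and litter was not given. With 3 mice per group the simulated recovery of 2-fold changes in a single comparison was 1%, so most differences of that size could not have been called there. Reads shared by the related Scd genes were dropped by the authors, which lowers their levels by an amount that is unknown.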
